A study of Homo sapiens with 9 samples.

Results

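The genes described here are 31 genes of the amino acid stress response, most of them textbook targets of the transcription factor ATF4, taken by symbol from a table of 27800 listed genes. All 31 symbols were found in the table. The list holds ATF4 itself and 6 other transcription factors, 6 genes of feedback and growth control, 7 amino acid transporter genes, 6 metabolic enzymes and 5 genes for secreted proteins or a receptor. Levels were measured by RNA sequencing of total RNA from Huh7, an established human hepatocellular carcinoma cell line grown in DMEM with serum. There were 3 groups of 3 libraries each. The FIDAS-5 group was given 5 µM FIDAS-5 for 48 h, and the JQ1 group 0.5 µM JQ1 for 48 h. For the vehicle group the labels name neither the carrier nor the time. FIDAS-5 is known as an inhibitor of methionine adenosyltransferase 2A, which makes S-adenosylmethionine from methionine, and JQ1 as an inhibitor of the BET bromodomain proteins that read acetylated histones. Nothing in the labels ties the libraries of a group to separate cultures, so p-values reflect library-to-library spread that may be purely technical. All cells came from a single line, and in a bulk sample fewer cells with a transcript and less transcript per cell cannot be told apart.

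When amino acids run short or unfolded proteins accumulate, kinases such as GCN2 and PERK phosphorylate the translation factor eIF2. Translation as a whole then falls while that of the ATF4 mRNA rises, so ATF4 protein is set in large part after transcription. ATF4 pairs with C/EBP proteins on composite elements and switches on genes for amino acid uptake, amino acid synthesis, tRNA charging and feedback on eIF2. In hepatocytes the same response also switches on secreted factors such as FGF21.

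The values are TPM, a transcript abundance corrected for transcript length and for the size of the library, so levels can be set side by side between genes. TPM keep no read counts, so the depth behind each value is unknown. Protein-coding genes held 27.6% to 34.0% of the total TPM in the 9 libraries. Hepatocyte and hepatoma markers (ALB, AFP, APOA1, TTR, SERPINA1 and HNF4A) were listed above 0.1 TPM in every group and summed to 3215 to 4992 TPM in FIDAS-5 libraries, 7675 to 11319 TPM in JQ1 libraries and 4062 to 5034 TPM in vehicle libraries. They did not move together. In the limma test described below, ALB, APOA1, SERPINA1 and HNF4A were higher with JQ1 than with vehicle (66.7%; 19.0% of all genes tested). TTR was lower (log2 difference -1.73; 16.7%, beside 19.4% of all genes), and AFP did not pass. With FIDAS-5, APOA1 and TTR were higher (33.3%; 12.6% of all genes) and 0 were lower (7.60% of all genes). The leukocyte markers PTPRC, CD14, CD68, LYZ, LCP1 and CD3E summed to 253 to 312 TPM with FIDAS-5. Their sums were 19.2 to 28.1 TPM with JQ1 and 115 to 141 TPM with vehicle, with 0 of the 6 below 0.1 TPM. These sums pool genes that moved differently, and only CD14, CD68, LYZ and LCP1 entered the tests. With JQ1, LYZ and CD68 were lower than with vehicle (50%; 19.4% of all genes), while CD14 and LCP1 did not pass. The LYZ log2 difference was -3.23 to -2.96 with 1 library left out. With FIDAS-5, CD68, LCP1 and LYZ were higher (75%; 12.6% of all genes). The 6 fibroblast and endothelial markers summed to 15.5 to 16.7 TPM with FIDAS-5, 1.497 to 1.81 TPM with JQ1 and 6.74 to 9.92 TPM with vehicle, with DCN, VWF and CDH5 below 0.1 TPM in all 3 groups and COL1A1 below it with JQ1. The 5 cholangiocyte markers summed to 18.6 to 32.6 TPM, 5.46 to 9.39 TPM and 7.79 to 8.58 TPM in the same order, with KRT7 below 0.1 TPM throughout and SPP1 below it with JQ1. Of the fibroblast and endothelial markers only PECAM1 entered the tests (log2 difference 0.84 with FIDAS-5 and -1.97 with JQ1). Of the 4 cholangiocyte markers tested, 1 was higher with JQ1, KRT19 (25%; 19.0% of all genes), and 2 were lower (50%; 19.4% of all genes). With FIDAS-5, 2 were higher (50%; 12.6% of all genes) and 0 lower (7.60% of all genes). The part of these marker differences in the results below was not tested.

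Promoter sequence for 24 of the 31 genes was taken from RefSeq (GRCh38.p14), in windows from 250 bases before to 50 bases after a transcript start. The motif TGATGNAA, the core of the C/EBP-ATF response element that ATF4 is known to bind, was searched on both strands. It was in at least 1 window of 9 of the 24 genes (37.5%), against 4.46% of the 27305 genes with a window. The 9 genes were CEBPG, JDP2, PPP1R15B, SLC3A2, SLC1A4, SLC1A5, ASNS, CHAC1 and FGF21. The genes were listed because they are known targets, so a higher share than in all genes is a description of the choice. The cyclic AMP response element TGACGTCA, also searched on both strands, was in 1 of the 24 genes, PPP1R15A, against 2.25% of all genes. Some stretches with TGATGNAA and the PPP1R15A stretch with TGACGTCA are shown because they stand before starts of genes whose levels went different ways below. They are written 5′ to 3′ on the strand of the gene, and capitals mark the match, which reads as its reverse complement in CHAC1 and SLC1A4.
ASNS: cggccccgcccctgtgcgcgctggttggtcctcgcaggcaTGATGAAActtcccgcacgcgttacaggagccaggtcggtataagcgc
CHAC1: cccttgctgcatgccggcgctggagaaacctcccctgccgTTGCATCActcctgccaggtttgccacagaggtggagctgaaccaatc
CEBPG: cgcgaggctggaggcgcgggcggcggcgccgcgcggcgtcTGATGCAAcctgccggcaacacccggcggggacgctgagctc
SLC1A4: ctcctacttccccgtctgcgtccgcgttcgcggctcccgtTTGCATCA
SLC1A5: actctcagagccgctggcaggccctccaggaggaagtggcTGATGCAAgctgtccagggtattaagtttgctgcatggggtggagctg
PPP1R15A: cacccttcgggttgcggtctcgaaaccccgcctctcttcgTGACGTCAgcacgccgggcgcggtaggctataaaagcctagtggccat
The stretches lie at chr7:97872429-97872516 on the minus strand for ASNS, chr15:40953222-40953309 on the plus strand for CHAC1, and chr19:33374031-33374112 on the plus strand for CEBPG. Those of SLC1A4, SLC1A5 and PPP1R15A lie at chr2:64989352-64989399 on the plus strand, chr19:46784864-46784951 on the minus strand and chr19:48872323-48872410 on the plus strand. All 6 lie upstream of an annotated start, apart from the last base of the SLC1A4 match, which is the first base of the transcript. Those of ASNS, CEBPG, SLC1A4 and SLC1A5 lie inside the span of the gene, so that start is not the outermost one. In vehicle cells the 6 genes ranged from 5.26 TPM (PPP1R15A) to 89.7 TPM (SLC1A5).

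ATF4 was the most abundant of the 31 in vehicle cells, at 347 ± 31.9 TPM (SD, n = 3), above 98.8% of the protein-coding genes tested. SLC3A2 followed at 123 ± 14.4 TPM, then ALDH18A1 at 92.7 ± 8.87 TPM and SLC1A5 at 89.7 ± 25.2 TPM. ALDH18A1 and SLC1A5 differed by less than their spread. So did each gene from its neighbour in the order PYCR1, ASNS, TRIB3, SLC38A2, EIF4EBP1 and SLC7A5, which averaged 53.7 down to 42.9 TPM. Another 17 genes averaged 5.26 to 27.7 TPM, and INHBE (2.83 TPM), JDP2 (1.69 TPM) and VLDLR (1.33 TPM) were the lowest that entered the tests. FGF21, a secreted hormone of the fasting liver, was near 0 everywhere: it was listed at 0.126, 0 and 0 TPM with FIDAS-5, at 0 in all 3 JQ1 libraries, and at 0, 0 and 0.0379 TPM with vehicle. FGF21 did not reach 1 TPM in 3 libraries and is the only gene of the 31 left out of the tests, so counts below are of 30.

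**Figure D1:**
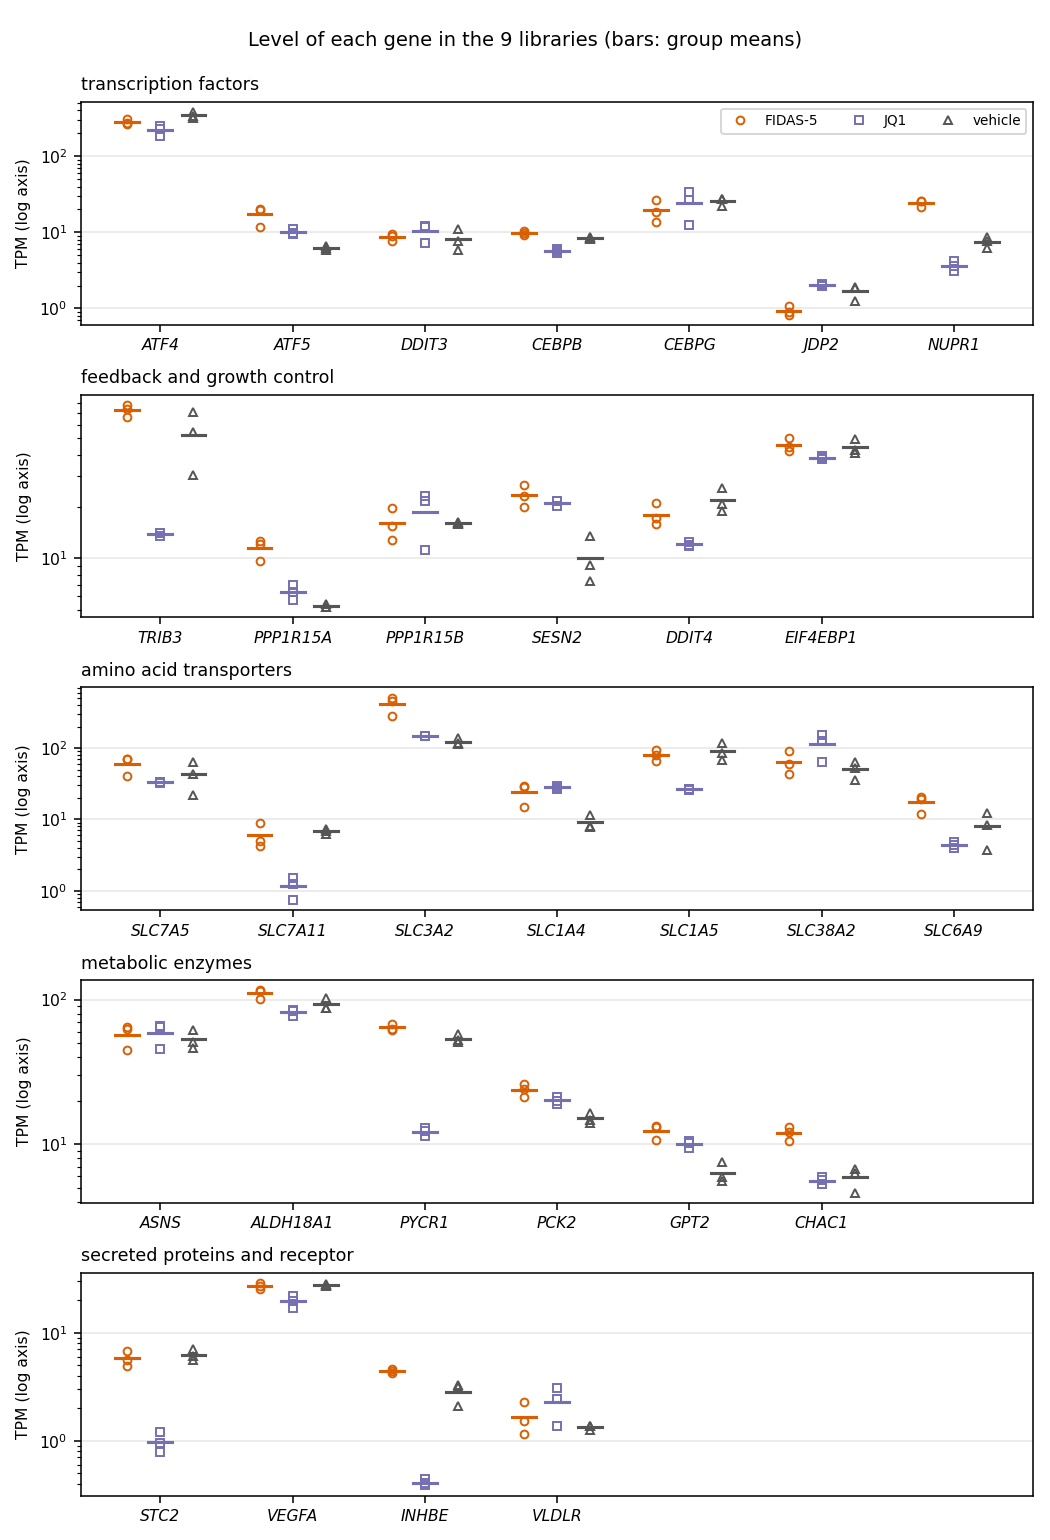
TPM on a log axis for the 30 tested genes in each of the 9 libraries (FIDAS-5 circles, JQ1 squares, vehicle triangles, bars at group means), grouped by role. NUPR1 and SLC3A2 stand apart with FIDAS-5 (means of 24.2 and 418 TPM), and PYCR1, SLC7A11, STC2 and INHBE with JQ1 (means of 12.2, 1.17, 0.980 and 0.410 TPM).

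With FIDAS-5, genes of this list that changed mostly rose, and with JQ1 most of those that changed fell. Against vehicle, 10 of the 30 rose with FIDAS-5 (33.3%), where 12.6% of all 13573 genes tested rose, and 1 fell (3.33%), where 7.60% of all genes fell. Against the same vehicle libraries, 6 rose with JQ1 (20%; 19.0% of all genes) and 11 fell (36.7%; 19.4% of all genes). Calls are at a Benjamini-Hochberg adjusted p under 0.05 over all genes from limma's moderated test on log2(TPM + 1), a scale that understates the change of lowly expressed genes. The median log2 difference of the 30 genes was 0.25 with FIDAS-5 and -0.18 with JQ1, beside -0.02 and -0.01 over all genes. In 14 of the 30 genes the FIDAS-5 libraries did not overlap those of vehicle (39.3% of all genes), and in 22 of the 30 the JQ1 libraries did not (50.7% of all genes). Without FIDAS-5 replicate 3 and JQ1 replicate 3, 9 genes rose and 0 fell with FIDAS-5, and 7 rose and 11 fell with JQ1. Of all 13573 genes, 1460 rose and 887 fell with FIDAS-5 at that setting, and 3225 rose and 2298 fell with JQ1. The 6 that rose with JQ1 became 3 without vehicle replicate 2, vehicle replicate 3, JQ1 replicate 1 or JQ1 replicate 2, because ATF5, SLC38A2 and PCK2 lost their calls. Of all 13573 genes, 2138, 1962, 1939 and 1808 rose with JQ1 at those settings in that order. The 1 that fell with FIDAS-5, JDP2, lost its call without any single library other than vehicle replicate 3 or JQ1 replicate 3. The share of genes higher with JQ1 was near that of all genes. The list was chosen with earlier results of these data known, and the part of that choice in its shares was not tested.

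**Figure D2:**
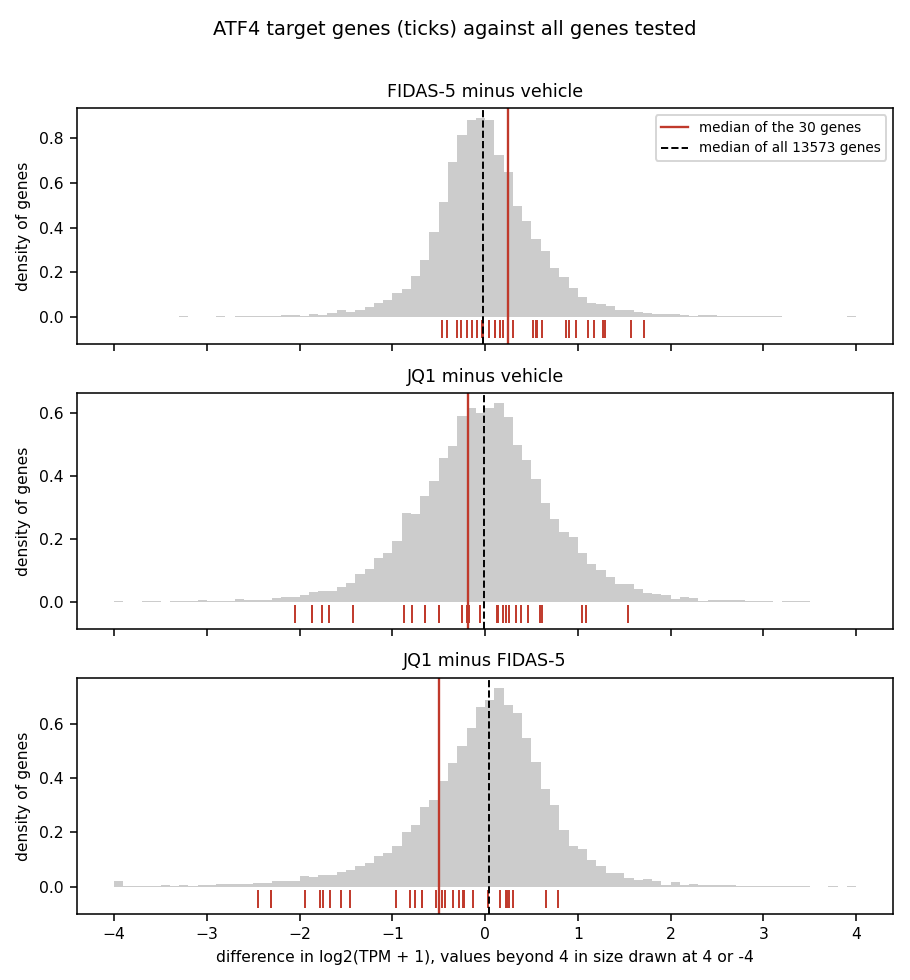
Density of the log2(TPM + 1) difference over all 13573 genes tested (grey) with the 30 listed genes as ticks, for FIDAS-5 minus vehicle, JQ1 minus vehicle and JQ1 minus FIDAS-5. The median of the 30 genes (solid line) lay at 0.25, -0.18 and -0.49, and that of all genes (dashed line) at -0.02, -0.01 and 0.05.

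Set side by side, both comparisons with vehicle placed the genes as follows. ATF5, SESN2, SLC1A4, PCK2 and GPT2 rose with both compounds. NUPR1 and INHBE rose with FIDAS-5 and fell with JQ1. PPP1R15A, SLC3A2 and CHAC1 passed the test only as higher with FIDAS-5, and JDP2 only as lower with FIDAS-5. SLC38A2 passed only as higher with JQ1, and ATF4, CEBPB, TRIB3, DDIT4, SLC7A11, SLC1A5, PYCR1, STC2 and VEGFA only as lower with JQ1. The other 9 passed in neither comparison. The comparisons share their vehicle libraries, so a difference between the compounds is read from JQ1 against FIDAS-5 directly. There 1 gene was higher with JQ1 (3.33%; 16.4% of all genes), and 16 were lower (53.3%; 18.5% of all genes). Without FIDAS-5 replicate 3 and JQ1 replicate 3 these were 1 and 13, beside 2424 and 2028 of all 13573 genes. The median log2 difference, JQ1 minus FIDAS-5, was -0.49, beside 0.05 over all genes, and libraries did not overlap in 22 of 30 (47.6% of all genes). Replicates of the same number in these 2 groups deviated together. With the replicate number as a block 2 genes were higher and 17 lower, SLC38A2 joining at 0.78 (adjusted p = 0.0488) and SLC7A5 at -0.81 (adjusted p = 0.0408). Calls over all 13573 genes rose with the block too, to 2450 higher and 2602 lower from 2220 and 2506. Without JQ1 replicate 3, 2 were higher, SLC38A2 joining at 1.15 (adjusted p = 0.0228), and without vehicle replicate 2 SLC7A5 was called at -0.81 (adjusted p = 0.0328). Of all 13573 genes, 3246 were higher without JQ1 replicate 3, and 2618 were lower without vehicle replicate 2.

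**Figure D3:**
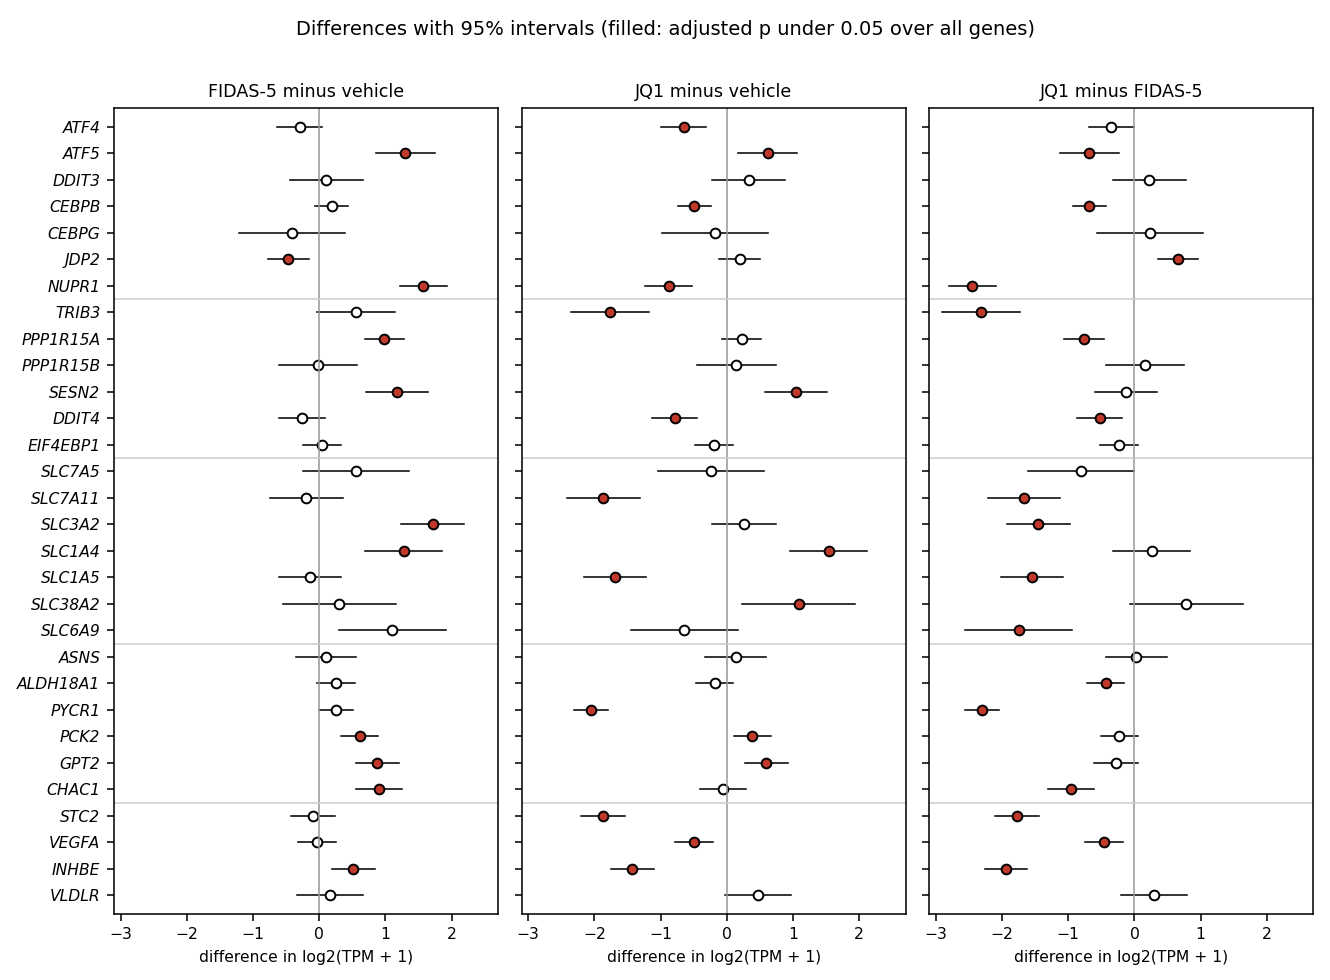
Log2(TPM + 1) difference of each of the 30 genes with its 95% interval from limma for FIDAS-5 minus vehicle, JQ1 minus vehicle and JQ1 minus FIDAS-5, genes in the order of their roles. Filled points passed an adjusted p under 0.05: 11, 17 and 17 genes, the lowest being NUPR1 at -2.45 for JQ1 minus FIDAS-5 and the highest SLC3A2 at 1.71 for FIDAS-5 minus vehicle.

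Among the transcription factors, ATF4 mRNA (chr22:39520559-39522686) was at 309, 272 and 264 TPM in the FIDAS-5 libraries, 231, 249.9 and 185 TPM in the JQ1 libraries and 341, 381 and 318 TPM in the vehicle libraries. Every treated library was below every vehicle library, and every JQ1 library below every FIDAS-5 library. ATF4 fell with JQ1 by 0.65 ± 0.15 on the log2 scale (SE, adjusted p = 0.00870). With FIDAS-5 the difference was -0.30 ± 0.15 and did not pass (adjusted p = 0.200), though it was called at -0.44 (adjusted p = 0.0193) when a trend with GC content was removed from each library. The difference between the compounds was -0.35 ± 0.15 (adjusted p = 0.102), called on rescaling to protein-coding genes (-0.43, adjusted p = 0.0225) or by median of ratios (-0.42, adjusted p = 0.0305). ATF4 protein was not measured.

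NUPR1, a small stress-induced chromatin protein, went opposite ways. It was at 25.7, 21.4 and 25.6 TPM with FIDAS-5, at 4.22, 3.61 and 3.08 TPM with JQ1, and at 6.23, 8.65 and 7.67 TPM with vehicle. The 3 groups did not overlap. NUPR1 was 3.22-fold higher in mean TPM with FIDAS-5 than with vehicle (log2 difference 1.57 ± 0.16, adjusted p = 0.000276) and fell with JQ1 (log2 difference -0.88 ± 0.16, adjusted p = 0.00256). Between the compounds the mean was 6.67-fold lower with JQ1 than with FIDAS-5 (log2 difference -2.45 ± 0.16, adjusted p = 8.62e-06).

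ATF5, a close relative of ATF4 whose translation is controlled in the same way, was at 20.2, 11.7 and 19.7 TPM with FIDAS-5, 9.69, 10.98 and 9.59 TPM with JQ1, and 6.71, 5.82 and 6.15 TPM with vehicle. All treated libraries were above all vehicle libraries, and FIDAS-5 replicate 2 was the lowest of its group. ATF5 rose with FIDAS-5 (log2 difference 1.30 ± 0.20, adjusted p = 0.00227) and with JQ1 (0.62 ± 0.20, adjusted p = 0.0347). The JQ1 call was lost without any single vehicle library and without JQ1 replicate 1 or JQ1 replicate 2, where the adjusted p reached 0.108. Between the compounds ATF5 was lower with JQ1 (log2 difference -0.68 ± 0.20, adjusted p = 0.0255), a call lost without FIDAS-5 replicate 1, FIDAS-5 replicate 3, JQ1 replicate 1 or JQ1 replicate 2 (adjusted p up to 0.0906).

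CEBPB, a C/EBP partner of ATF4, was at 9.11, 10.3 and 9.83 TPM with FIDAS-5, 6.05, 5.31 and 5.75 TPM with JQ1, and 8.61, 8.47 and 8.19 TPM with vehicle. It fell with JQ1 against vehicle (log2 difference -0.49 ± 0.11, adjusted p = 0.00749) and was lower with JQ1 than with FIDAS-5 (-0.68 ± 0.11, adjusted p = 0.00158). JDP2, a repressor that competes at AP-1 and ATF sites, was the one gene of the 30 called lower with FIDAS-5, at 0.833, 0.889 and 1.09 TPM, against 1.92, 1.88 and 1.27 TPM with vehicle. That difference was -0.47 ± 0.13 (adjusted p = 0.0392) and lost its call when any library other than vehicle replicate 3 or JQ1 replicate 3 was left out (adjusted p up to 0.108). JDP2 was at 2.001, 2.13 and 2.03 TPM with JQ1, above every FIDAS-5 library, and the difference between the compounds was 0.66 ± 0.13 (adjusted p = 0.00527), the one call of the 30 in that direction.

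DDIT3, which encodes the pro-apoptotic factor CHOP, did not pass in any comparison. It was at 8.86, 7.78 and 9.38 TPM with FIDAS-5, 11.9, 12.3 and 7.32 TPM with JQ1, and 5.90, 11.1 and 7.68 TPM with vehicle, so all 3 groups overlapped. The 95% interval of its log2 difference ran from -0.44 to 0.65 with FIDAS-5 and from -0.22 to 0.88 with JQ1. CEBPG, the C/EBP partner whose promoter element is shown above, did not pass either, at 27.0, 18.3 and 13.8 TPM with FIDAS-5, 34.0, 26.9 and 12.5 TPM with JQ1, and 22.5, 27.5 and 27.4 TPM with vehicle. Replicate 3 was the lowest of both treated groups. DDIT3 (chr12:57516588-57520517) lies near INHBE (chr12:57455307-57458025), which did change.

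Of the genes of feedback and growth control, TRIB3, a pseudokinase that binds and restrains ATF4, fell with JQ1. It was at 78.5, 66.3 and 73.8 TPM with FIDAS-5, 13.4, 14.0 and 14.1 TPM with JQ1, and 71.2, 30.7 and 54.7 TPM with vehicle. The JQ1 libraries were the lowest 3 and lay close together, while those of vehicle ranged more than 2-fold. TRIB3 was 3.77-fold lower in mean TPM with JQ1 than with vehicle (log2 difference -1.76 ± 0.26, adjusted p = 0.000965) and 5.27-fold lower than with FIDAS-5 (-2.31 ± 0.26, adjusted p = 0.000202). With FIDAS-5 against vehicle the difference was 0.55 ± 0.26 (adjusted p = 0.177), called at 0.81 only without vehicle replicate 1 (adjusted p = 0.0423).

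PPP1R15A and PPP1R15B encode the GADD34 and CReP subunits that lead a phosphatase to eIF2 and so end the response. PPP1R15A was at 12.5, 9.68 and 12.1 TPM with FIDAS-5, 6.93, 6.30 and 5.72 TPM with JQ1, and 5.41, 5.17 and 5.20 TPM with vehicle. It rose 2.17-fold with FIDAS-5 (log2 difference 0.98 ± 0.13, adjusted p = 0.00125), and was 0.22 ± 0.13 with JQ1 (adjusted p = 0.217), although no JQ1 library was as low as a vehicle library. PPP1R15B, the constitutive subunit, averaged 15.96 ± 3.51 TPM with FIDAS-5, 18.6 ± 6.52 TPM with JQ1 and 15.95 ± 0.207 TPM with vehicle (SD, n = 3 each) and did not pass. The TPM of PPP1R15B over that of PPP1R15A was 1.57, 1.59 and 1.06 with FIDAS-5, 3.33, 3.42 and 1.94 with JQ1, and 2.94, 3.05 and 3.11 with vehicle. Every FIDAS-5 library was below every other library in that ratio.

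SESN2, DDIT4 and EIF4EBP1 restrain mTORC1 or the translation it drives. SESN2, a leucine sensor, was at 26.8, 19.8 and 23.2 TPM with FIDAS-5, 20.2, 21.5 and 21.5 TPM with JQ1, and 13.5, 7.35 and 9.07 TPM with vehicle. It rose with FIDAS-5 (log2 difference 1.17 ± 0.20, adjusted p = 0.00439) and with JQ1 (1.05 ± 0.20, adjusted p = 0.00395), and the difference between the compounds, -0.13, had a 95% interval from -0.59 to 0.34. DDIT4 averaged 18.0 ± 2.62 TPM with FIDAS-5, 12.1 ± 0.333 TPM with JQ1 and 21.7 ± 3.44 TPM with vehicle. DDIT4 fell with JQ1 (log2 difference -0.79 ± 0.15, adjusted p = 0.00357). Against FIDAS-5 it was lower with JQ1 at an adjusted p of 0.0247, a call lost without FIDAS-5 replicate 2, JQ1 replicate 1 or JQ1 replicate 2 (adjusted p up to 0.0850). EIF4EBP1, at 45.6, 38.4 and 44.4 TPM on average with FIDAS-5, JQ1 and vehicle, did not pass in any comparison.

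Of the 7 transporter genes, 2 rose with FIDAS-5 (28.6%; 12.6% of all genes), and with JQ1 2 rose (28.6%; 19.0% of all genes) and 2 fell (28.6%; 19.4% of all genes). SLC3A2 (chr11:62856109-62888860) encodes the heavy chain that carries several amino acid transporters, those of SLC7A5 and SLC7A11 among them, to the cell surface. It was at 511, 284 and 459 TPM with FIDAS-5, 149, 146 and 147 TPM with JQ1, and 139.8, 117 and 113 TPM with vehicle. FIDAS-5 replicate 2 was the lowest of its group but still above all other groups. SLC3A2 rose 3.39-fold with FIDAS-5 (log2 difference 1.71 ± 0.21, adjusted p = 0.000819) and did not pass with JQ1 (0.26 ± 0.21, adjusted p = 0.364).

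Neither of its light chains on the list passed the test with FIDAS-5. SLC7A11, the cystine carrier, was at 8.97, 5.03 and 4.27 TPM with FIDAS-5, 1.51, 1.25 and 0.742 TPM with JQ1, and 6.90, 6.21 and 7.33 TPM with vehicle. The JQ1 libraries were the lowest 3, and the other groups overlapped. SLC7A11 was 5.84-fold lower in mean TPM with JQ1 than with vehicle (log2 difference -1.86 ± 0.24, adjusted p = 0.000479) and differed by -0.19 ± 0.24 with FIDAS-5 (adjusted p = 0.618). SLC7A5, the carrier of large neutral amino acids, was at 69.9, 40.7 and 69.8 TPM with FIDAS-5, 33.1, 32.1 and 33.7 TPM with JQ1, and 63.4, 22.0 and 43.2 TPM with vehicle, and did not pass against vehicle with either compound. The TPM of SLC3A2 over that of SLC7A5 was 7.31, 6.97 and 6.58 with FIDAS-5, 4.49, 4.56 and 4.36 with JQ1, and 2.20, 5.33 and 2.62 with vehicle. That ratio was highest in the FIDAS-5 libraries, and vehicle replicate 2 lay above the JQ1 libraries. The TPM of SLC3A2 over that of SLC7A11 was 56.9, 56.3 and 107.6 with FIDAS-5, 98.8, 117 and 198 with JQ1, and 20.3, 18.9 and 15.4 with vehicle. There every treated library was above every vehicle library, and the treated groups overlapped.

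The related carriers SLC1A4 and SLC1A5, both with the element TGATGNAA before an annotated start inside the gene, went different ways with JQ1. SLC1A4, which exchanges alanine, serine and cysteine, was at 29.5, 14.7 and 28.5 TPM with FIDAS-5, 29.5, 26.7 and 27.8 TPM with JQ1, and 11.4, 7.89 and 8.05 TPM with vehicle. It rose with FIDAS-5 (log2 difference 1.28 ± 0.26, adjusted p = 0.00854) and with JQ1 (1.54 ± 0.26, adjusted p = 0.00177). SLC1A5, the glutamine carrier, was at 93.8, 65.7 and 81.1 TPM with FIDAS-5, 26.0, 26.7 and 26.6 TPM with JQ1, and 117, 67.8 and 84.1 TPM with vehicle. It was 3.39-fold lower in mean TPM with JQ1 than with vehicle (log2 difference -1.69 ± 0.21, adjusted p = 0.000379) and differed by -0.14 ± 0.21 with FIDAS-5 (adjusted p = 0.687).

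SLC38A2, the carrier SNAT2 for small neutral amino acids, was at 90.4, 59.6 and 43.3 TPM with FIDAS-5, 152, 126 and 63.7 TPM with JQ1, and 64.7, 36.2 and 52.4 TPM with vehicle. All 3 groups overlapped, and replicate 3 was the lowest of both treated groups. The difference with JQ1 against vehicle was 1.09 ± 0.38 (adjusted p = 0.0475). That call was lost without vehicle replicate 2, vehicle replicate 3, FIDAS-5 replicate 2, JQ1 replicate 1 or JQ1 replicate 2, where the adjusted p reached 0.156. SLC6A9, the glycine carrier GLYT1, was at 20.9, 11.9 and 19.5 TPM with FIDAS-5, 4.31, 4.78 and 3.98 TPM with JQ1, and 12.3, 3.70 and 8.29 TPM with vehicle. Vehicle replicate 2 was below all JQ1 libraries, and vehicle replicate 1 above FIDAS-5 replicate 2. SLC6A9 was 4.004-fold lower in mean TPM with JQ1 than with FIDAS-5 (log2 difference -1.75 ± 0.35, adjusted p = 0.00515). Against vehicle it differed by 1.11 ± 0.35 with FIDAS-5 (adjusted p = 0.0583; called at 1.44 without vehicle replicate 1, adjusted p = 0.0194) and by -0.64 ± 0.35 with JQ1 (adjusted p = 0.186; called at -1.06 without vehicle replicate 2, adjusted p = 0.0179). The FIDAS-5 difference was also called with median-of-ratios scaling (adjusted p = 0.0264), quantile normalization (0.0362), rescaling to protein-coding genes (0.0235), the replicate block (0.0315) and the GC trend removed (0.0482).

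Among the 6 enzyme genes, PYCR1 mRNA fell with JQ1. PYCR1 (chr17:81932391-81937300), one of the enzymes that reduce pyrroline-5-carboxylate to proline, was at 67.5, 62.0 and 62.9 TPM with FIDAS-5, 11.3, 12.3 and 13.0 TPM with JQ1, and 58.1, 52.3 and 50.8 TPM with vehicle. The 3 groups did not overlap, and the FIDAS-5 libraries were the highest. PYCR1 was 4.41-fold lower in mean TPM with JQ1 than with vehicle (log2 difference -2.05 ± 0.12, adjusted p = 1.16e-05), and differed by 0.25 ± 0.12 with FIDAS-5 (adjusted p = 0.163). ALDH18A1, which makes that intermediate from glutamate, averaged 110.4 ± 8.40 TPM with FIDAS-5, 81.4 ± 4.27 TPM with JQ1 and 92.7 ± 8.87 TPM with vehicle and did not pass against vehicle. The TPM of ALDH18A1 over that of PYCR1 was 1.72, 1.63 and 1.82 with FIDAS-5, 7.48, 6.75 and 5.91 with JQ1, and 1.51, 1.97 and 1.72 with vehicle. JQ1 libraries stood apart in that ratio, and the others overlapped. ALDH18A1 was lower with JQ1 than with FIDAS-5 at an adjusted p of 0.0245, a call lost without FIDAS-5 replicate 1 or 3 or without any single JQ1 library (adjusted p up to 0.0856).

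ASNS, asparagine synthetase, is often used as a readout of ATF4, and a promoter window of it holds the element shown above. It was at 64.7, 44.9 and 62.3 TPM with FIDAS-5, 65.1, 64.9 and 45.8 TPM with JQ1, and 46.3, 61.6 and 51.3 TPM with vehicle. All 3 groups overlapped, and no comparison passed. The 95% interval of the log2 difference ran from -0.36 to 0.56 with FIDAS-5 and from -0.33 to 0.59 with JQ1.

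CHAC1, which breaks down glutathione, was at 13.1, 10.5 and 12.1 TPM with FIDAS-5, 5.27, 5.91 and 5.63 TPM with JQ1, and 6.79, 6.34 and 4.62 TPM with vehicle. FIDAS-5 libraries were the highest 3, and the others overlapped. CHAC1 rose 2.01-fold with FIDAS-5 (log2 difference 0.91 ± 0.15, adjusted p = 0.00375) and differed by -0.05 ± 0.15 with JQ1 (adjusted p = 0.806). GPT2, the mitochondrial alanine aminotransferase, was at 13.1, 10.8 and 13.4 TPM with FIDAS-5, 10.5, 10.2 and 9.47 TPM with JQ1, and 7.55, 5.95 and 5.54 TPM with vehicle. PCK2, the mitochondrial phosphoenolpyruvate carboxykinase, was at 25.9, 21.3 and 24.0 TPM, 19.1, 21.1 and 19.99 TPM, and 16.5, 14.8 and 14.1 TPM in the FIDAS-5, JQ1 and vehicle libraries. In both genes all treated libraries were above all vehicle libraries. GPT2 rose with FIDAS-5 (0.87 ± 0.14, adjusted p = 0.00339) and with JQ1 (0.60 ± 0.14, adjusted p = 0.0109), and PCK2 with FIDAS-5 (0.61 ± 0.12, adjusted p = 0.00871). PCK2 was also called with JQ1 (0.38 ± 0.12, adjusted p = 0.0361), but not without vehicle replicate 2 or 3, without FIDAS-5 replicate 3 or without any single JQ1 library (adjusted p up to 0.124).

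Of the 4 tested genes for secreted proteins or a receptor, 3 fell with JQ1 (75%; 19.4% of all genes) and 0 rose (19.0% of all genes). The 3 that fell encode secreted proteins. STC2, a secreted glycoprotein of calcium and phosphate balance, was at 6.82, 4.97 and 5.62 TPM with FIDAS-5, 1.203, 0.946 and 0.792 TPM with JQ1, and 6.05, 7.01 and 5.63 TPM with vehicle. It was 6.36-fold lower in mean TPM with JQ1 than with vehicle (log2 difference -1.87 ± 0.15, adjusted p = 4.33e-05), and FIDAS-5 and vehicle overlapped. INHBE, the hepatocyte subunit of activin E, was at 4.44, 4.59 and 4.204 TPM with FIDAS-5, 0.385, 0.404 and 0.441 TPM with JQ1, and 3.26, 3.13 and 2.10 TPM with vehicle. The 3 groups did not overlap. INHBE was 6.89-fold lower in mean TPM with JQ1 than with vehicle (log2 difference -1.43 ± 0.14, adjusted p = 0.000126) and 10.8-fold lower than with FIDAS-5 (-1.94 ± 0.14, adjusted p = 1.72e-05). Its rise with FIDAS-5 was 0.51 ± 0.14 (adjusted p = 0.0338) and lost its call without vehicle replicate 3, without any single FIDAS-5 library and without JQ1 replicate 1 or JQ1 replicate 2 (adjusted p up to 0.109).

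VEGFA, the main angiogenic factor, was at 28.8, 25.4 and 26.9 TPM with FIDAS-5, 19.6, 21.9 and 16.9 TPM with JQ1, and 27.8, 28.1 and 27.3 TPM with vehicle. It fell with JQ1 (log2 difference -0.50 ± 0.13, adjusted p = 0.0134) and differed by -0.04 ± 0.13 with FIDAS-5 (adjusted p = 0.869). Lower with JQ1 than with FIDAS-5 at an adjusted p of 0.0205, VEGFA lost that call without FIDAS-5 replicate 1, FIDAS-5 replicate 3 or JQ1 replicate 1 (adjusted p up to 0.0634). VLDLR, a lipoprotein receptor, was at 2.28, 1.51 and 1.17 TPM with FIDAS-5, 3.08, 2.43 and 1.37 TPM with JQ1, and 1.36, 1.27 and 1.36 TPM with vehicle. Its difference with JQ1 was 0.47 ± 0.22 (adjusted p = 0.125), called at 0.68 without JQ1 replicate 3 (adjusted p = 0.0205). It was also called with median-of-ratios scaling (0.44, adjusted p = 0.0399), quantile normalization (0.43, adjusted p = 0.0391), rescaling to protein-coding genes (0.59, adjusted p = 0.0409) and removal of the GC trend (0.62, adjusted p = 0.000551).

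Spread between the libraries of a group differed from gene to gene. Within the JQ1 group 5 of the 30 genes ranged more than 2-fold, CEBPG, PPP1R15B, SLC7A11, SLC38A2 and VLDLR, each lowest in JQ1 replicate 3, while the median gene of the 30 ranged 1.14-fold. Over all genes in JQ1 libraries the median range was 1.46-fold and 25.0% ranged more than 2-fold. Within the FIDAS-5 group the 3 that did were SLC7A11, SLC1A4 and SLC38A2, and within vehicle TRIB3, SLC7A5 and SLC6A9 (13.1% and 11.7% of all genes in those groups). FIDAS-5 replicate 1 held the highest value of its group for 23 of the 30 genes and FIDAS-5 replicate 2 the lowest for 20. The genes of the list had a median transcript GC content of 57.8%, beside 49.4% over the 13042 tested genes with a value. Over those genes the log2 difference and GC content had a Spearman correlation of 0.37 for FIDAS-5 against vehicle, 0.21 for JQ1 against vehicle and -0.04 for JQ1 against FIDAS-5. The deviation of a library from its group mean correlated with GC content at 0.55 in FIDAS-5 replicate 3 and 0.64 in JQ1 replicate 3, and at -0.51 in FIDAS-5 replicate 1 and -0.65 in JQ1 replicate 1. These correlations are across genes of the same libraries, which are not independent replicates. In the 6 genes under 45% GC (CEBPG, PPP1R15B, SLC7A11, SLC38A2, ASNS and VLDLR), JQ1 replicate 3 stood at a log2 ratio of -1.29 to -0.51 to the mean of replicates 1 and 2, against -0.73 to 0.16 in the other 24. With FIDAS-5 the same ratio was -0.79 to 0.19 in the 6 genes and -0.27 to 0.37 in the other 24. The part of GC content in the results above was not tested beyond the values with its trend removed. With the trend removed, ATF5 (adjusted p = 0.0782) and PCK2 (adjusted p = 0.0816) lost their JQ1 calls against vehicle, INHBE (adjusted p = 0.132) its FIDAS-5 call and DDIT4 (adjusted p = 0.0631) its call between the compounds. Calls gained with JQ1 against vehicle were VLDLR (0.62, adjusted p = 0.000551), PPP1R15B (0.32, adjusted p = 0.0276), EIF4EBP1 (-0.42, adjusted p = 0.0216) and SLC6A9 (-0.84, adjusted p = 0.0305). With FIDAS-5 against vehicle, SLC6A9 (0.82, adjusted p = 0.0482) and VLDLR (0.29, adjusted p = 0.0385) were gained beside ATF4, and for JQ1 against FIDAS-5, SLC38A2 (0.74, adjusted p = 0.0258) and VLDLR (0.33, adjusted p = 0.0154). Calls over all genes rose too. With the trend removed, 3636 of 13042 were higher and 3431 lower with JQ1 against vehicle (2582 and 2637 of 13573 in the main fit). They were 2249 and 2201 with FIDAS-5 against vehicle (1711 and 1031), and 3727 and 3131 for JQ1 against FIDAS-5 (2220 and 2506).

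**Figure D4:**
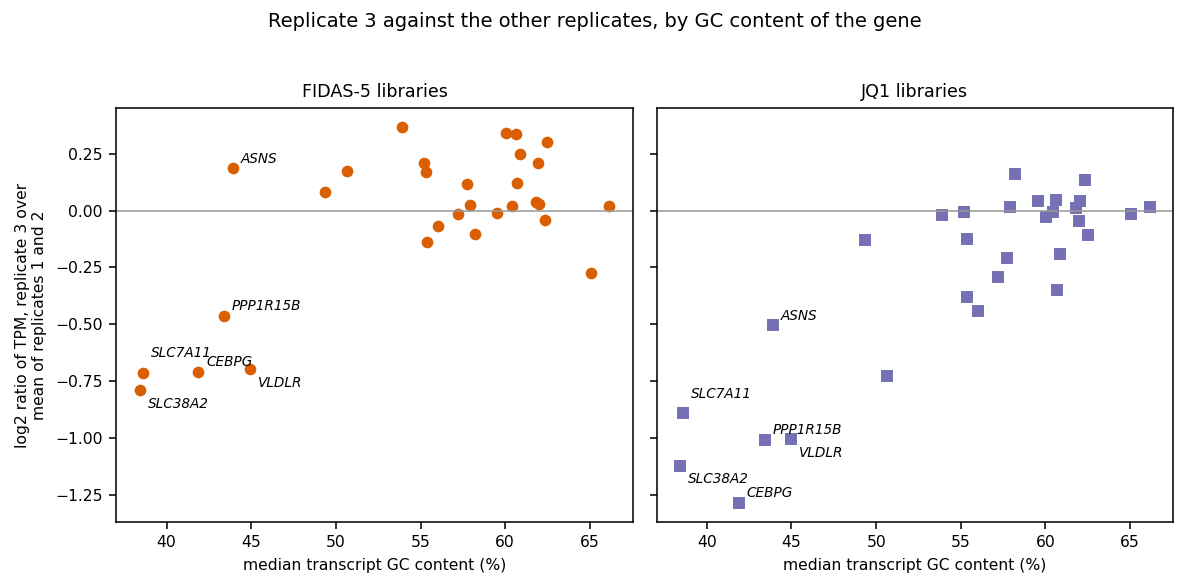
Log2 ratio of TPM in replicate 3 to the mean of replicates 1 and 2 against median transcript GC content, for each of the 30 genes in the FIDAS-5 libraries (left) and the JQ1 libraries (right). The 6 named genes lie under 45% GC, and their ratios ran from -0.79 to 0.19 with FIDAS-5 and from -1.29 to -0.51 with JQ1.

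The 4 other lists of the same pathway, also chosen with earlier results of these data known, were counted beside the 30 genes. Of 32 other known ATF4 targets, 5 rose (15.6%; 12.6% of all genes) and 0 fell (7.60% of all genes) with FIDAS-5. With JQ1 against vehicle 5 rose (15.6%; 19.0% of all genes) and 13 fell (40.6%; 19.4% of all genes). At an unadjusted p under 0.05 in the same limma test, 7 were higher and 1 lower with FIDAS-5, beside 2591 and 1947 of all 13573 genes. Without vehicle replicate 3 the 5 that rose with FIDAS-5 became 3, beside 1072 of all 13573 genes. HMOX1, heme oxygenase, was at 36.1, 31.1 and 30.8 TPM with FIDAS-5, 42.4, 43.0 and 44.6 TPM with JQ1, and 18.7, 16.4 and 16.1 TPM with vehicle. It rose with both, by 0.90 ± 0.12 (adjusted p = 0.00121) and 1.30 ± 0.12 (adjusted p = 8.81e-05), as did the autophagy receptor SQSTM1, by 0.94 and 0.65 (adjusted p = 0.00140 and 0.00417 in the order FIDAS-5, JQ1). ATF3, a stress-induced repressor, was at 5.14, 3.30 and 4.75 TPM with FIDAS-5, 3.25, 3.55 and 3.005 TPM with JQ1, and 1.71, 1.63 and 0.934 TPM with vehicle. Its rise was 1.15 ± 0.18 with FIDAS-5 (adjusted p = 0.00283) and 0.83 ± 0.18 with JQ1 (adjusted p = 0.00704). The arginine carrier SLC7A1 fell with JQ1, at 1.93, 1.996 and 2.07 TPM against 11.9, 8.61 and 8.70 TPM with vehicle (log2 difference -1.83 ± 0.20, adjusted p = 0.000212). So did the branched-chain aminotransferase BCAT1 (-2.11, adjusted p = 0.00132), the isoleucyl-tRNA synthetase IARS1 (-1.60, adjusted p = 0.00120) and the mitochondrial folate enzyme MTHFD2 (-1.67, adjusted p = 0.00175).

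Upstream of ATF4, of the 16 genes for eIF2 kinases and eIF2 machinery 1 rose (6.25%; 12.6% of all genes) and 0 fell (7.60% of all genes) with FIDAS-5, with the same counts at an unadjusted p under 0.05 in limma. With JQ1 2 rose (12.5%; 19.0% of all genes) and 3 fell (18.8%; 19.4% of all genes), the share lower being near that of all genes. EIF2AK4, the amino acid sensing kinase GCN2, was at 6.62, 6.16 and 6.83 TPM with FIDAS-5, 5.45, 4.98 and 3.98 TPM with JQ1, and 5.66, 10.5 and 8.505 TPM with vehicle. It was called lower with JQ1 (log2 difference -0.64 ± 0.20, adjusted p = 0.0326), but not without vehicle replicate 2, vehicle replicate 3, JQ1 replicate 2 or JQ1 replicate 3 (adjusted p up to 0.0988). GCN1, its activator, was called higher with both, at 0.70 ± 0.21 with FIDAS-5 (adjusted p = 0.0488) and 0.72 ± 0.21 with JQ1 (adjusted p = 0.0256). The FIDAS-5 call of GCN1 held only without vehicle replicate 1 or JQ1 replicate 3 (otherwise adjusted p up to 0.148), and the JQ1 call was lost without vehicle replicate 2, vehicle replicate 3 or any single JQ1 library (adjusted p up to 0.0660). Calls with JQ1 that held with each single library left out were EIF2B1, lower (log2 difference -0.69 to -0.53), and DELE1, listed as KIAA0141, higher (0.52 to 0.63). The 3 that fell with JQ1 became 1 without vehicle replicate 2, JQ1 replicate 2 or JQ1 replicate 3 (2272, 2144 and 2212 of all 13573 genes). The 2 that rose became 1 without vehicle replicate 2 or 3 (2138 and 1962 of all genes). They also became 1 without JQ1 replicate 1, 2 or 3 (1939, 1808 and 3125 of all genes).

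Of 17 tested genes of the IRE1 and ATF6 arm of the unfolded protein response, 3 rose with FIDAS-5 (17.6%; 12.6% of all genes) and 0 fell (7.60% of all genes), or 5 and 0 at an unadjusted p under 0.05 in limma. With JQ1 1 rose (5.88%; 19.0% of all genes) and 7 fell (41.2%; 19.4% of all genes). HERPUD1, an endoplasmic reticulum degradation factor that is also induced through ATF4, rose with both, by 1.11 ± 0.16 with FIDAS-5 (adjusted p = 0.00208) and 0.80 ± 0.16 with JQ1 (adjusted p = 0.00503). XBP1, the factor spliced by IRE1, was at 391.8, 349.7 and 382 TPM with FIDAS-5, 191, 187 and 182 TPM with JQ1, and 336, 393 and 343 TPM with vehicle, and fell with JQ1 (log2 difference -0.93 ± 0.12, adjusted p = 0.000407). The 3 that rose with FIDAS-5 became 1 without vehicle replicate 1, 2 or 3 or without FIDAS-5 replicate 1. Of all 13573 genes, 1858, 1435, 1072 and 1101 rose at those settings in that order. The 7 that fell with JQ1 became 4 without vehicle replicate 2, vehicle replicate 3 or JQ1 replicate 3 (2272, 1962 and 2212 of all genes). Without JQ1 replicate 3, 2 rose with JQ1 (3125 of all genes).

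Of 20 genes of amino acid sensing by mTORC1, 0 were called with FIDAS-5 in limma, where 12.6% of all genes rose and 7.60% fell. At an unadjusted p under 0.05, 4 were higher and 2 lower. With JQ1 8 rose (40%; 19.0% of all genes) and 1 fell (5%; 19.4% of all genes). FLCN, a GTPase-activating protein for Rag GTPases, was at 5.17, 5.29 and 5.58 TPM with FIDAS-5, 11.004, 10.5 and 10.2 TPM with JQ1, and 4.10, 4.32 and 3.87 TPM with vehicle. FLCN rose with JQ1 (log2 difference 1.18 ± 0.11, adjusted p = 7.82e-05), as did RRAGC, one of the Rag GTPases (1.68, adjusted p = 0.00150), and the negative regulators DEPDC5 (0.81, adjusted p = 0.00142) and TSC2 (1.41, adjusted p = 0.00435). DEPTOR, an inhibitor bound to mTOR, was the one that fell (-1.11 ± 0.21, adjusted p = 0.00348). With FIDAS-5, 2 were called higher without vehicle replicate 1 (1858 of all 13573 genes) and 1 without FIDAS-5 replicate 2 (1504 of all genes). Without FIDAS-5 replicate 1 or without JQ1 replicate 3, 1 was called lower (916 and 1445 of all genes). With JQ1, 2 fell without JQ1 replicate 1 (2527 of all genes).

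**Figure D5:**
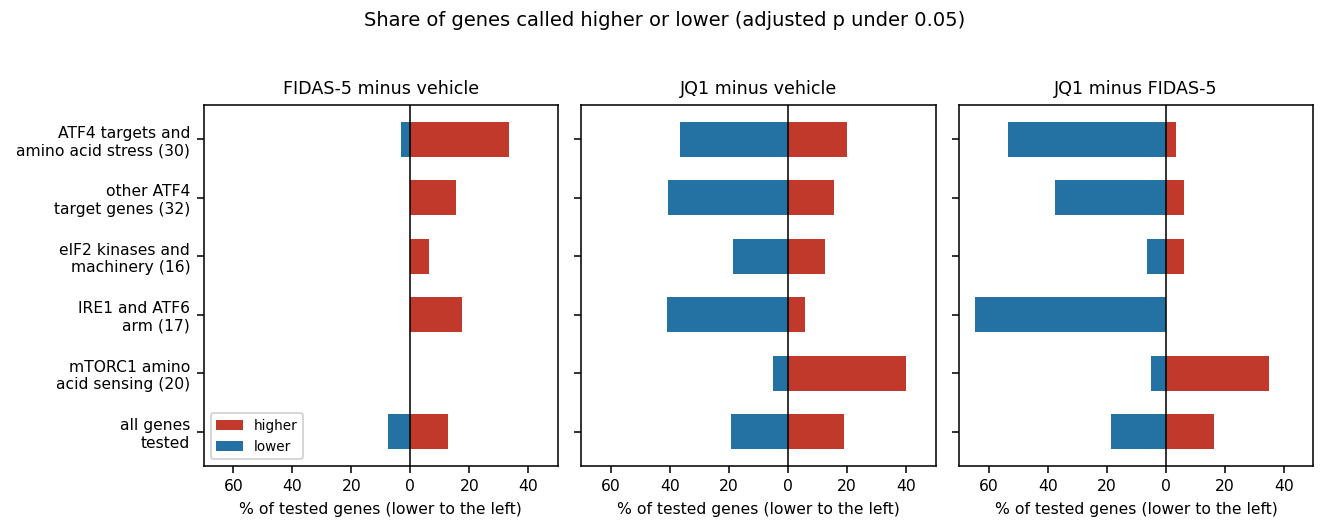
Share of tested genes called higher (right of 0) and lower (left of 0) at an adjusted p under 0.05, for the 30 listed genes, 4 other lists (number tested in brackets) and all 13573 genes, in FIDAS-5 minus vehicle, JQ1 minus vehicle and JQ1 minus FIDAS-5. The 30 listed genes had 33.3% higher with FIDAS-5 and 36.7% lower with JQ1, and amino acid sensing by mTORC1 had 40% higher with JQ1.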

How the data were processed

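RNA sequencing of Huh7 cells was measured in 3 FIDAS-5, 3 JQ1 and 3 vehicle libraries. The deposited TPM values per gene symbol were made with Salmon against hg38, per the submitters' processing notes. The Salmon version and the annotation are not given in the sources used here. TPM keep no counts, so depth, counting error and detection limits are unknown.

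The genes were found by symbol, and gene coordinates and promoter sequences were taken from RefSeq (GRCh38.p14). The genes and the 4 other lists were chosen with earlier results of these data known. Values were set to log2(TPM + 1), and genes reaching 1 TPM in 3 or more of the 9 libraries were kept (13573). With limma 3.58.1 (R 4.3.3), a single model with 3 group means covered the 9 libraries; moderation used no trend, with 6 residual degrees of freedom and 2.86 prior ones. Tests were two-sided, with Benjamini-Hochberg adjustment over all genes tested and a threshold of 0.05. A call is an adjusted p under that threshold. Any of the 31 genes could be named, and from each other list up to 4 called genes per direction and compound with the smallest adjusted p, plus ATF4 partners and eIF2 kinases. Some genes within this rule are left out of the text. The scripts were tested on simulated data. Figures were drawn with matplotlib 3.10.9.

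Replicate numbers come from the sample titles, which name no shared batch or day. Deviations from the group means of same-numbered libraries correlated at 0.26, 0.10 and 0.42 between JQ1 and FIDAS-5, all over 0.1, so the block by replicate number is given there beside the results it changes. They correlated at 0.04, 0.16 and 0.01 between FIDAS-5 and vehicle and at -0.08, 0.03 and -0.002 between JQ1 and vehicle, not all over 0.1. Whether those libraries share more than a number cannot be told from the labels or these values. Alternatives were another pseudocount, other filters and scalings, 6 libraries only, the replicate block, a moderation trend and each library left out. Removing a GC trend from each library (lowess, span 0.3) was added after the data were seen.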

Additional observations from a re-analysis of the deposited data

How the results depend on the processing

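Of the calls against vehicle, 9 of 11 with FIDAS-5 and 14 of 17 with JQ1 kept their direction and side of the threshold under all 20 alternatives that gave them a value, as did 13 of 17 between the compounds. Leaving out 1 library, or FIDAS-5 replicate 3 with JQ1 replicate 3, gave 9 to 12 higher and 0 to 1 lower with FIDAS-5, 3 to 7 higher and 11 to 12 lower with JQ1, and 1 to 2 higher and 12 to 17 lower for JQ1 against FIDAS-5. Over all 13573 genes these settings gave 1072 to 1858 higher and 548 to 1445 lower with FIDAS-5. They gave 1808 to 3225 higher and 1962 to 2600 lower with JQ1. For JQ1 against FIDAS-5 they gave 1369 to 3246 higher and 1970 to 2618 lower. The 1 gene lower with FIDAS-5, JDP2, became 0 with a filter of 5 TPM (where JDP2 is not tested), median-of-ratios scaling, quantile normalization, 6 libraries only or the replicate block, and the count was 2 with the GC trend removed. The 1 gene higher in JQ1 against FIDAS-5, JDP2 too, became 0 with that filter, 2 with quantile normalization or the replicate block and 3 with the GC trend removed. Over all genes, 1325 of 8619 were higher there with that filter, 3036 with quantile normalization, 2450 with the block and 3727 with the GC trend removed. With FIDAS-5 against vehicle, 755 of 8619 were lower with that filter, 1324 with median-of-ratios scaling and 1064 with 6 libraries only. Against vehicle the replicate block gave 1755 higher and 1136 lower over all genes with FIDAS-5 (1711 and 1031 without it) and 2733 and 2811 with JQ1 (2582 and 2637 without it), and 3 of 6 and 1 of 6 libraries correlated best with their own number. With the replicate block SLC6A9 was called with FIDAS-5 (1.11, adjusted p = 0.0315) and PCK2 was not with JQ1 (adjusted p = 0.0542). Over all genes, quantile normalization gave 1904 higher and 1756 lower with FIDAS-5, and removing the GC trend gave 2249 and 2201.

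Uncalled log2 differences changed sign in 32 cases, none of them called before or after. Not all were near 0 in the main fit: SLC1A4 was at 0.26 for JQ1 against FIDAS-5 and PYCR1 at 0.25 for FIDAS-5 against vehicle. With FIDAS-5 against vehicle, PPP1R15B was 0.030 with median-of-ratios scaling, 0.032 with protein-coding genes only, 0.15 without the GC trend, and -0.17 to 0.12 with libraries left out. VEGFA was 0.016 and 0.017 with those scalings and -0.082 to 0.0058 with libraries left out. EIF4EBP1 was -0.00051 with quantile normalization, -0.26 without the GC trend and -0.031 to 0.12 with libraries left out. Without the GC trend CEBPB was -0.11, SLC7A11 0.028 and PYCR1 -0.049. With libraries left out DDIT3 ran from -0.083 to 0.32 and SLC1A5 from -0.32 to 0.072. With JQ1 against vehicle, CEBPG was 0.0096 without the GC trend and -0.46 to 0.23 with libraries left out, where PPP1R15B ran from -0.038 to 0.46, SLC7A5 from -0.65 to 0.091 and CHAC1 from -0.20 to 0.039. For JQ1 against FIDAS-5, ASNS was -0.040 with median-of-ratios scaling, -0.046 with protein-coding genes only and -0.13 to 0.26 with libraries left out. There CEBPG ran from -0.046 to 0.64, PPP1R15B from -0.018 to 0.48 and SLC1A4 from -0.050 to 0.43. The cause of these changes was not tested. Depth is unknown, so it sets no stated limit.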
